A study of Homo sapiens with 18 samples.

Results

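Accessible chromatin of A2780, an ovarian cancer line that is sensitive to cisplatin, was compared between untreated cells and cells given 200 µM of the drug for 3 h, as lists of ATAC-seq peaks. The authors deposited 1 list of peaks per condition, made from 3 control replicates and 2 cisplatin replicates, and both lists were used whole. They hold 34979 control peaks and 32159 cisplatin peaks, 67138 of the 118944 peaks in the 4 lists of the series, and the other 51806 belong to the 2 lists of Acis cells. Acis is a cisplatin-resistant line derived from A2780 by long exposure to the drug, kept with 1 µM cisplatin every 3 passages, and it was left untreated or given the same 200 µM for 3 h. RNA-seq of the same conditions, with 3 libraries in each of the 4 groups, served as a separate readout. All cells were treated with DNase before the transposition. A peak was called lost when no cisplatin peak overlapped it by at least 1 bp, gained when no control peak overlapped it, and kept otherwise. Each list is 1 sample, so no test between conditions was possible for the peaks, and 95% exact binomial (Clopper-Pearson) intervals cover counting error only. The peak files give no reads and the study's methods state only a minimum of aligned reads per sample. The depth behind each list is thus not known, and an effect of pooling 3 against 2 replicates cannot be told apart from an effect of the treatment. Peak names are numbered up to 114975 in the control and 64519 in the cisplatin list, and the listed peaks equal 30.4% and 49.8% of these numbers. Listed peaks had to overlap between all replicates. Whether a peak missing from a list was called and then dropped by that rule was not tested.

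ATAC-seq marks open chromatin by the insertion of a transposase, so a peak is a stretch of DNA that is not covered by tightly packed nucleosomes. Promoters of active genes, which are often rich in GC and CpG, tend to stay open in most cells. Sites far from promoters, such as enhancers, vary more between cells and conditions and are bound by factors such as AP-1, a dimer of FOS and JUN proteins that responds to stress. CTCF is a zinc-finger protein that organizes chromatin loops, and SP and KLF proteins bind GC boxes. Cisplatin forms adducts on DNA, mostly at adjacent guanines, which block RNA polymerase and are removed by nucleotide excision repair.

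The sequences below are single examples of lost, gained and kept peaks, picked by fixed rules, and do not represent their classes. Capitals mark the letters of 11 motifs that were searched on both strands. The letters were TGANTCA for AP-1, TGACGTCA for CRE, CNAGNNGGC for CTCF, CCGGAAG for ETS, GCGCATGCG for NRF1, GGGCGGGG for SP and KLF, CACGTG for the E-box, CATTCCA for TEAD, CCAATCA for NFY, GNCATGNC for p53 and AAGATGGCG for YY1. None of these patterns contains another, and a match is a description of the letters, not of a bound factor. Each pattern is a single short form, so a sequence without a match can still hold a site of that factor. The CTCF letters, for example, need a C as their first base. The first 5 sequences are 150 bases around the summit, plus strand of hg38, leaving out 1 chromosome and windows with an annotated UTR. The lost one is the strongest lost promoter peak of a protein-coding gene, with no motif required. The gained and kept ones are the strongest non-promoter peaks with the letters named in their label, so those letters follow from the choice. They come from a lost promoter peak near MYLK (chr3:123702159-123702308), a gained intronic peak near GNAO1-AS1 (chr16:56203204-56203353), a gained intronic peak (chr13:31424270-31424419), a kept exonic peak in ASTN1 (chr1:176949131-176949280) and a kept intronic peak in ZSWIM6 (chr5:61408802-61408951). The lost and gained peaks had a fold enrichment of 22.5, 17.5 and 21.5 in their own list, against medians of 6.36 for all lost and 5.89 for all gained peaks. The kept peaks had 28.9 and 28.5 in the control list and 24.5 and 24.6 in the cisplatin list.
Lost, MYLK promoter: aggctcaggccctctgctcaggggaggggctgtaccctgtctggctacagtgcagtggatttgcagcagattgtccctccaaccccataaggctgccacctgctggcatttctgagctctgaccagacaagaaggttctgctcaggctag
Gained, AP-1 letters: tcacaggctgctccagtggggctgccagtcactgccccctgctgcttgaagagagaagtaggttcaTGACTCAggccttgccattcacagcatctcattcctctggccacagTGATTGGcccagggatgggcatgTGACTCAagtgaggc
Gained, p53 letters: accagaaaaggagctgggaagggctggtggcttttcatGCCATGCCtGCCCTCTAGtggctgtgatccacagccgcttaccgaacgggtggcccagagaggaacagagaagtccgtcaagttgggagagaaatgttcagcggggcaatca
Kept, CTCF letters: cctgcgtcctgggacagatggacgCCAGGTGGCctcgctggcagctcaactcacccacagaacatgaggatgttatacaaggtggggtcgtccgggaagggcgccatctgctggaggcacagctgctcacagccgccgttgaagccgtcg
Kept, SP and KLF letters: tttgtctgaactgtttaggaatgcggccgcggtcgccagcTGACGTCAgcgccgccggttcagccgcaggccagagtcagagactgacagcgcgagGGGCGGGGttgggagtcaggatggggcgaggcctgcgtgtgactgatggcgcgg

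The other 2 sequences are the 250 bases before the gene start in the RefSeq promoter tables (GRCh38.p14), for a gene whose promoter peak was lost while its RNA rose (HBEGF, minus strand, chr5:140346604-140346853) and for one whose promoter peak was kept while its RNA rose (FOS, plus strand, chr14:75278578-75278827).
HBEGF: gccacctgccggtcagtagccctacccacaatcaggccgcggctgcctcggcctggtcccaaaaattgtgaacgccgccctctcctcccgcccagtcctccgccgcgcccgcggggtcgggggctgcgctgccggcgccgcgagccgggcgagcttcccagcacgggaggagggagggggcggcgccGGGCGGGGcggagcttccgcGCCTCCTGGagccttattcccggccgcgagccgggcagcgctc
FOS: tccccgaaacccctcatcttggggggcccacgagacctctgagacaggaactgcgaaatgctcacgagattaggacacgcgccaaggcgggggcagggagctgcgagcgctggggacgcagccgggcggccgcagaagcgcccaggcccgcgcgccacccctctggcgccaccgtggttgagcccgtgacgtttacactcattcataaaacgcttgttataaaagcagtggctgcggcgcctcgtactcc

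Of the 34979 control peaks, 25650 were kept and 9329 (26.7%) were lost. Of the 32159 cisplatin peaks, 6152 (19.1%) were gained. Both numbers depended on which peaks were counted. With both lists cut to their 20000 peaks of highest -log10 q, 3405 (17.0%) control and 3305 (16.5%) cisplatin peaks had no partner in the other cut list. A partner further down the other list did not count there. Of peaks with a -log10 q of at least 20, set against the whole other list, 6094 (19.9%) were lost and 1477 (6.62%) gained. That cutoff was stricter for the cisplatin list. It left 30567 control and 22322 cisplatin peaks, and in kept pairs the -log10 q had a median ratio of 0.497, cisplatin over control. The 2 numbers are therefore not on an equal footing. Promoter peaks, with a midpoint within 1000 bp of an annotated transcript start, were kept more often than other peaks. The lost share was 8.94% of 14905 promoter peaks (interval 8.48 to 9.41%) and 39.8% of 20074 other peaks (39.2 to 40.5%). It was 27.7% in exons, 43.6% in introns and 37.2% in intergenic DNA. The gained share was 13.1% of 15988 promoter peaks and 25.1% of 16171 other peaks, and it ranged from 22.2% in exons to 25.4% in introns. Promoters thus held 1332 of the lost peaks and 2100 of the gained peaks, although fewer peaks were gained than lost in all.

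Fold enrichment is the height of a peak over the local background, as the peak caller gave it. Weak peaks were lost far more often than strong ones: 61.4% of control peaks with a fold enrichment below 5 had no partner, against 0.976% (29 of 2970) of those at 20 and above. The difference between promoters and other sites was present at every strength. Below 5, 34.7% of promoter peaks and 72.3% of other peaks were lost, and from 7.5 to 10 the shares were 10.7% and 40.3%. At 20 and above, 4 of 2290 promoter peaks and 25 of 680 other peaks were lost. Gained peaks followed the same order in all bins but the weakest, where 48.3% of promoter peaks and 42.5% of other peaks were gained. At 20 and above, 6 of 1064 cisplatin peaks were gained. Narrow peaks were also lost more often, 49.7% of those under 400 bp against 14.3% of those of at least 1000 bp, and for gained peaks the shares were 41.6% and 2.55%. The part that closeness to the calling threshold has in these shares was not tested.

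**Figure D1:**
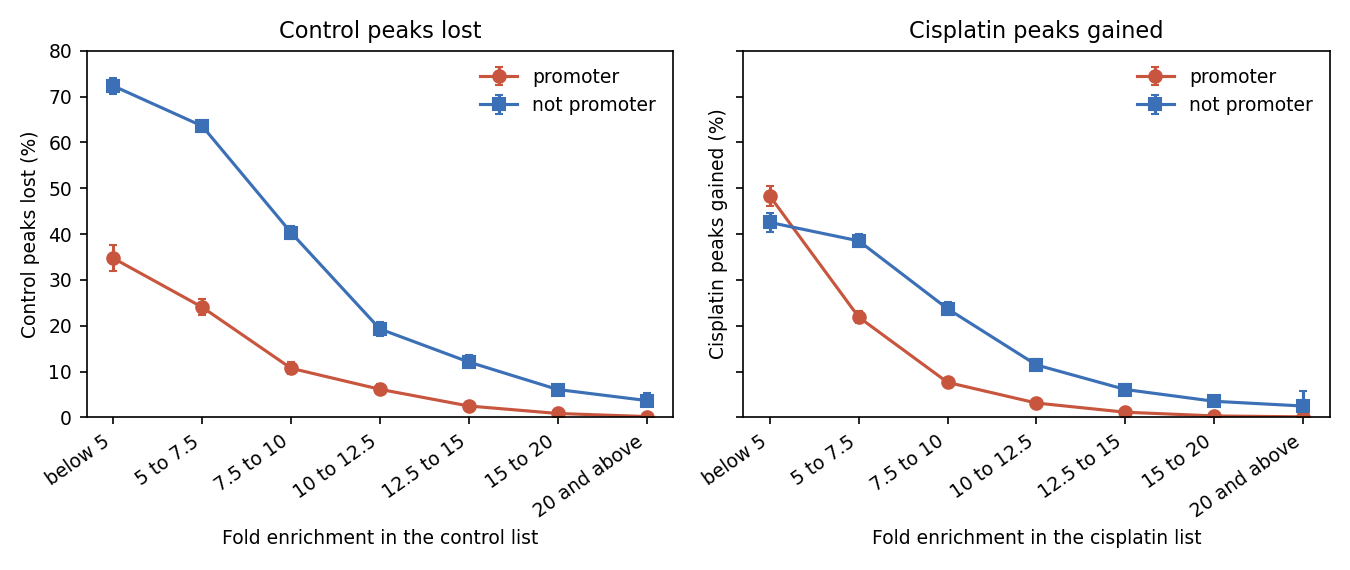
Share of control peaks lost (left) and of cisplatin peaks gained (right), in percent, by fold enrichment in the peak's own list, with promoter peaks as circles and other peaks as squares. Bars are 95% exact binomial intervals, which cover counting error only. The lost share falls from 34.7% to 0.175% in promoters and from 72.3% to 3.68% elsewhere.

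Lost peaks had a median width of 521 bp and a median fold enrichment of 6.36, against 688 bp and 12 for kept control peaks. Gained peaks had 432 bp and 5.89, against 609 bp and 9.80 for kept cisplatin peaks. A lost peak lay a median of 10426 bp from the nearest transcript start, and a kept control peak 703 bp. Few lost peaks lay close to a cisplatin peak. The median distance from a lost peak to the nearest cisplatin peak was 15168 bp, and 754 (8.08%) lay within 1 kb. For gained peaks the median distance was 13656 bp, and 1029 (16.7%) lay within 1 kb of a control peak.

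Lost peaks were poor in GC. Their median GC content was 46.8%, against 58.4% in kept control peaks, and they held 1.25 against 4.30 CpG per 100 bp. Adjacent guanines on either strand (GG or CC), where cisplatin binds, were also less frequent in them, at 12.8 per 100 bp against 19.4 in kept peaks. Outside promoters the differences were smaller, 45.9% against 51.9% GC and 12.3 against 15.6 GG or CC per 100 bp. Gained peaks lay in between, with 52.8% GC over all and 48.8% outside promoters. Since strength goes with position and base composition, non-promoter peaks with a fold enrichment of 5 to 10 were also compared alone. In these, 57.5% of peaks below 40% GC, 65.5% of those at 45 to 50% and 22.4% of those at 60% and above (interval 20.1 to 24.9%) were lost. The gained share went from 47.9% below 40% GC to 17.2% at 60% and above.

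**Figure D2:**
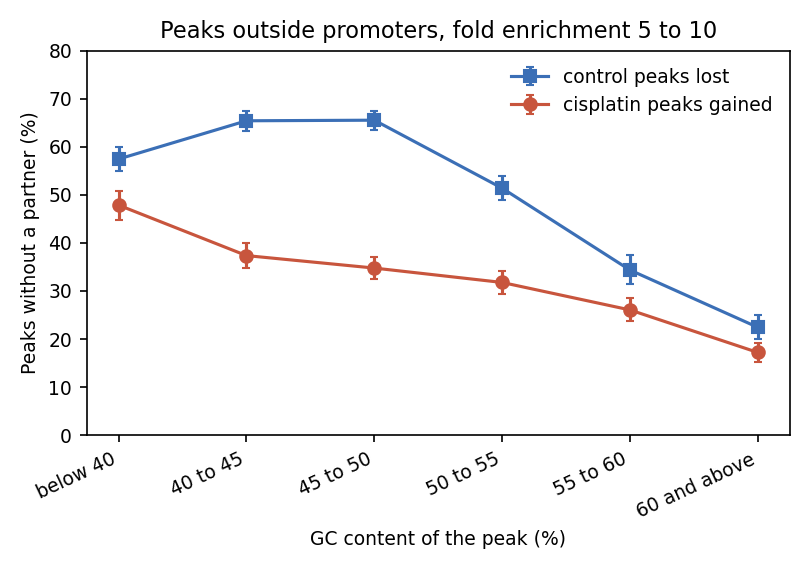
Share of peaks without a partner in the other list (%) by GC content of the peak, for peaks outside promoters with a fold enrichment of 5 to 10, with control peaks lost as squares and cisplatin peaks gained as circles. Bars are 95% exact binomial intervals. Both shares are lowest at 60% GC and above, at 22.4% and 17.2%.

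The motif letters were counted in 300 bp around each summit, and peaks without them may hold other forms of a site. CTCF letters were found in 28.5% of the control peaks outside promoters and in 24.5% of 34935 RefSeq promoter windows of the same length. Of the non-promoter control peaks with these letters, 25.2% were lost, against 45.7% of those without. At a fold enrichment of 5 to 10 the shares were 40.9% and 57.0%, and within peaks of 45 to 50% GC in that range they were 52.2% and 69.2%. Below 40% GC the order was the other way, with 65.7% lost among peaks with the letters and 56.9% among those without. GC boxes, the SP and KLF letters, are in 22.7% of RefSeq promoter windows and in 3.79% of non-promoter control peaks, and peaks with them were lost in 16.2% of cases against 40.8%. At a fold enrichment of 5 to 10 and 60% GC and above, those shares came closer, 18.6% and 23.2%. Peaks with ETS letters (10.2% of promoter windows) were lost in 23.8% against 40.2%. The rarer CRE, NRF1 and YY1 letters, in 1.84%, 1.89% and 1.75% of promoter windows, were present in only 59, 46 and 63 of these peaks, with lost shares of 20.3%, 10.9% and 20.6% against 39.9% of those without. At a fold enrichment of 5 to 10 the shares were 34.5%, 33.3% and 32.1% of 29, 12 and 28 peaks.

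AP-1 letters, present in 7.72% of RefSeq promoter windows, were found in 8.72% of control peaks outside promoters. They were more frequent among lost (9.90%) than kept (7.94%) control peaks, and also among gained (9.06%) than kept (7.83%) cisplatin peaks. Of the control peaks with AP-1 letters 45.2% were lost, against 39.3% without, and at a fold enrichment of 5 to 10 the shares were 56.8% and 53%. Within that range the order depended on base composition: below 40% GC 71.3% against 55.8% were lost, and at 45 to 50% GC 58.4% against 66.3%. For the p53 letters, in 6.07% of promoter windows, the gained share was 26.9% with and 24.9% without. For the other letters, E-box (7.23% of promoter windows), TEAD (4.18%) and NFY (6.95%), the lost share of peaks with the letters was 30.8%, 42.6% and 36.6%, against 39.7 to 40.3% of those without.

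The strongest lost peak, an intronic site at chr2:49229633-49229827, had a fold enrichment of 32.3. A lost peak of 29.6 lay at the 7SL pseudogene RN7SL5P (chr9:9442086-9442294), and one of 25 in intergenic DNA at chr3:83523432-83523768. Among the other 7 of the 10 strongest were an intronic peak of ELMO1, a regulator of cell migration (chr7:36967385-36967802, 23.9), and peaks near NAPG (chr18:10520039-10520532, 23.4) and YPEL5 (chr2:30164877-30165355, 23.2). The MYLK promoter peak (chr3:123702000-123702500) had 22.5 and belongs to the gene of myosin light chain kinase. The last 3 were at chr17:83247179-83247393 (22.9), at an intronic site whose nearest start, 51516 bp away, is that of CHSY3 (22.4), and in an intron of TDRD7 (22.1). None of these 10 lost peaks had a cisplatin peak within 5 kb, and the nearest lay between 5288 and 1024191 bp away.

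Gained peaks were weaker at the top. Only the peak at chrX:109054149-109054410, with a fold enrichment of 31.3, passed 22 among the 10 strongest gained peaks. It was followed by chr2:60674601-60674999 (21.6), chr13:31423950-31424576 (21.5) and chr6:154675624-154675894 (21.0). The fifth and the sixth, on chromosome 8, had 20.2 and 20.1. An intronic peak of the histone demethylase gene KDM4C (chr9:7052534-7052873) had 19.8, an exonic peak of ILDR2 (chr1:166910303-166910670) 19.7, a peak at the immunoglobulin segment IGHV4-31 (chr14:106349106-106349425) 19.6 and an intronic peak of the kinase gene KSR2 (chr12:117580748-117580997) 18.8. Of the 10, 9 had a peak in at least 1 Acis list, and of the 10 strongest lost peaks 7 did, while over all peaks 77.0% of the lost and 72.4% of the gained were in no Acis list.

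Kept peaks were compared in 24990 pairs that matched 1 to 1. Their median fold enrichment was 12.1 in the control list and 9.96 in the cisplatin list, and the median ratio of a pair was 0.848, with quartiles of 0.748 and 0.957. The cisplatin value was lower in 81.2% of the pairs. This held at promoters (0.846) and elsewhere (0.850) alike. The -log10 q of a pair, which depends on read depth, had a median ratio of 0.497, and the width 0.960. The ratio was 1.08 in pairs with a control fold enrichment below 5 and 0.814 at 15 to 20, where the pairs were grouped by a value that is itself in the ratio. In Acis cells, whose lists came from the same numbers of replicates, the median ratios were 0.957 for fold enrichment and 0.503 for -log10 q.

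**Figure D3:**
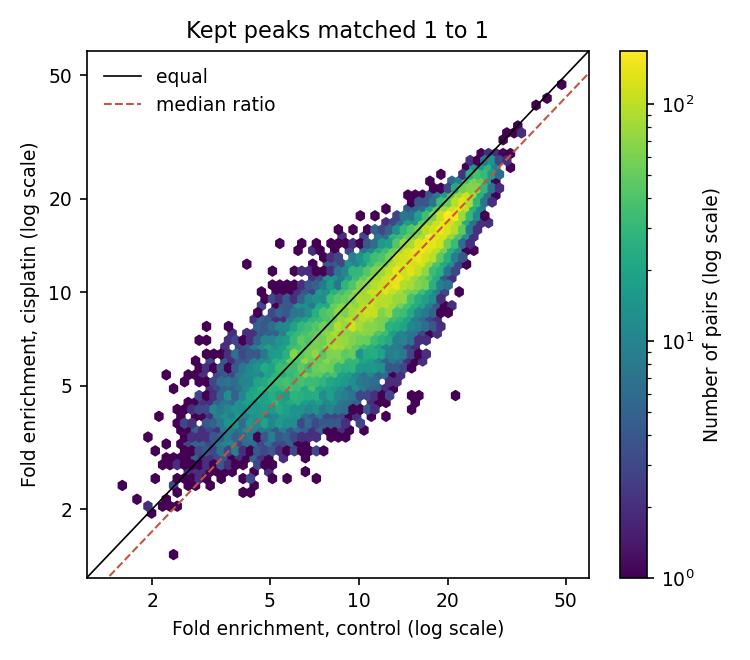
Fold enrichment of the 24990 kept peaks matched 1 to 1, in the control list (x, log scale) and in the cisplatin list (y, log scale), with the number of pairs per hexagon as colour on a log scale. The solid line marks equal values and the dashed line the median ratio of 0.848, and most hexagons lie below the solid line.

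Large differences among kept peaks were rare. Relative to the median ratio, 97 pairs (0.388%) were at least 2-fold higher after cisplatin and 76 (0.304%) at least 2-fold lower. Promoters made up 60 of the 97 and 27 of the 76, against 52.2% of all pairs. The higher pairs were weak in the control list, with a median fold enrichment of 4.44 and 8.03 after cisplatin, and the lower pairs went from 13 to 4.67. In pairs matched in both lines, the median log2 ratio in Acis, relative to the Acis median, was 0.35 for 37 of the higher pairs and -0.03 for 40 of the lower pairs. Over 16800 peaks matched in both lines, Spearman's rho between the ratios of A2780 and Acis was 0.159, a description across peaks that share libraries.

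By the largest relative difference, the lowest kept peak lay near GNA12, a G protein subunit gene (chr7:2873874-2874746), with a fold enrichment of 21.6 in the control list and 4.68 after cisplatin. An intronic peak of TBC1D5 (chr3:17616010-17617099) had 15.7 and 4.33, one at chr5:142551281-142552104 had 16.2 and 4.54, one at chr12:65470187-65470852 had 15.1 and 4.27, and one near KIF21A, a kinesin gene (chr12:39272800-39273588), had 14.9 and 4.68. Of the 5 largest differences in the other direction, 3 lay within 150 kb on chromosome 18, in and beside CCDC178 and ASXL3-DT. Their fold enrichment was 5.36 and 14.2 at chr18:33560777-33561122, 5.11 and 12.1 at chr18:33424427-33424961, and 6.09 and 13.9 at chr18:33495368-33495636. The others were at chr21:8988160-8988684 (4.13 and 12.1) and chr11:26753763-26754360 (6.47 and 14.1). The 10 control peaks with the highest -log10 q were all kept, and some lay at nuclear copies of mitochondrial DNA such as MTCYBP13, MTND5P11 and MTND2P28.

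Lost and gained peaks were unevenly spread along the genome. By chromosome, the lost share ranged from 15.5% on chromosome 19, which is dense in genes, to 32.0% on chromosome 2, and the gained share from 14.3% on chromosome 19 to 29.4% on chromosome 18. In windows of 2 Mb with at least 20 control peaks, the median lost share was 22.7%, and 52 of 666 windows had lost over 60% of their peaks. Among the most depleted were chromosome X at 94 to 96 Mb (23 of 26 control peaks lost), chromosome 14 at 42 to 44 Mb (18 of 22), chromosome 3 at 102 to 104 Mb (30 of 37) and chromosome 5 at 52 to 54 Mb (28 of 36). The Acis control list held 0, 2, 2 and 3 peaks in these windows. Across the 666 windows, those in the lowest quartile of median GC lost 47.6% of their peaks, and those in the next quartiles 24.7%, 18.6% and 17.9%.

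Gain was concentrated less. In 602 windows with at least 20 cisplatin peaks the median gained share was 17.6%, and 2 windows passed 60%, on chromosome 11 at 50 to 52 Mb (15 of 20) and 52 to 54 Mb (22 of 29). Next came chromosome 18 at 16 to 18 Mb (30 of 53) and chromosome 15 at 18 to 20 Mb (24 of 44), and these 4 windows are near centromeres, where much of the sequence is repeated. On chromosome 18, the 5 Mb from 15 to 20 Mb held 64 gained among 122 cisplatin peaks and 8 lost among 67 control peaks. Kept pairs there had a median log2 ratio of 0.31 relative to the median of all pairs. Without these 5 Mb, the gained share of chromosome 18 was 24.3% (132 of 544). The relative log2 ratio of kept pairs at 16 to 18 Mb was 0.37 over 23 pairs in A2780 and -0.11 over only 8 pairs in Acis. On the same chromosome, 48 of 81 control peaks from 30 to 35 Mb were lost.

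Peaks that A2780 shared with Acis were mostly kept. Of the control peaks found in both Acis lists 5.69% were lost, against 24.4% of those in 1 Acis list and 60.7% of the 11831 in neither. For gained peaks the shares were 3.27%, 24.1% and 48.2%. Where a control peak had a partner in the Acis control list, it could be asked whether the same site was lost in both lines. If the Acis partner was lost, 31.6% of the A2780 peaks were lost too (484 of 1533, interval 29.2 to 34.0%), against 5.72% of the 18703 whose Acis partner was kept. At a fold enrichment of 5 to 10 the shares were 35.8% and 13.2%. Likewise, 24.0% (748 of 3117) of cisplatin peaks whose Acis partner was gained were gained, against 3.28% of the others. In Acis itself 11.9% of control peaks were lost and 19.8% of cisplatin peaks gained.

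RNA of the same treatment was tested with edgeR over all 12 libraries, with total counts of 4460460 to 5072216 in the 6 A2780 libraries. Genes were called at an adjusted p under 0.05 with a log2 fold change of 1 or more in either direction. Of 15760 genes tested, 652 (4.14%) were higher and 233 (1.48%) lower after cisplatin, and without the limit on the fold change 3347 (21.2%) and 4451 (28.2%). With total counts in place of TMM scaling, which moved the median of all genes by 0.11, the calls were 804 and 153, so that 84.0% instead of 73.7% of them were higher. Of 10 epithelial and ovarian carcinoma markers, 3 passed the count filter (KRT8, KRT18 and PAX2), while PAX8, EPCAM and CDH1 were among the other 7 and were not tested. The filter ran over all 12 libraries of both lines, so a marker that passed it need not be expressed in A2780. All 5 fibroblast markers passed the filter, with 788 to 902 normalized counts of the collagen gene COL1A1 in control libraries, and no leukocyte or endothelial marker did. Per the study's methods the replicates were triplicate wells of each condition, with no separate days or passages stated, so p-values measure the spread between these libraries, which may be technical. All 3 pairs of A2780 control libraries, and 1 of the 3 cisplatin pairs, had a mean squared difference below that expected from counting alone (0.730 to 0.875 times). The authors had removed duplicate reads, and each library was kept as a replicate. With the 3 control libraries averaged into 1, an alternative added after seeing the data, 514 genes were higher and 192 lower.

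Genes were then grouped by whether any part of a peak overlapped the 1000 bp on either side of any of their starts. This rule is wider than the midpoint rule for promoter peaks above. In these groups, lost means a promoter peak in the control list only and gained one in the cisplatin list only. Such a peak can still overlap a peak of the other list that lies outside the window. Most tested genes, 11904 (75.5%), had a promoter peak in both lists, 309 in the control list only, 495 in the cisplatin list only and 2977 in neither. Protein-coding genes made up 87.6% of the genes with a peak in both lists and 77.4% of all tested genes. The median log2 fold change of RNA was -0.02 with a peak in both, -0.03 with a lost peak, -0.02 with a gained peak and 0.03 with none. Genes with a lost promoter peak were called higher in 22 cases (7.12%) and lower in 6 (1.94%), and genes with a gained one in 27 (5.45%) and 6 (1.21%). With a peak in both lists 3.38% were higher and 0.647% lower, with none 6.58% and 4.67%, and of all tested genes 4.14% and 1.48%. The median over all tested genes was -0.01. Both groups held weakly expressed genes, with a median of 53.2 counts per library for lost and 124 for gained, against 241 for genes with both peaks. Among genes with a mean of at least 50 counts, 3 of 159 with a lost promoter peak were higher (1.89%) and 2 lower (1.26%). With a gained one, 4 of 332 were higher (1.20%) and 3 lower (0.904%). Of all genes with that mean 0.817% were higher and 0.440% lower, so the shares of the 2 groups rest on few genes. No promoter peak in either list was found for 59.7% of the 233 lower and 30.1% of the 652 higher genes. Of all tested genes, 18.9% had none. Genes without a promoter peak were weakly expressed, with a median of 21.1 counts per library, and 36.7% of them were protein-coding. Of the 767 among them with a mean of at least 50 counts, 11 were higher and 11 lower. Where both lists had a promoter peak, the median ratio of the strongest was 0.834 for the 402 higher genes, 0.861 for the 77 lower genes and 0.837 over all 11904.

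Most immediate-early genes, which respond to signals and stress within minutes, had a promoter peak before the treatment, as had most tested genes. Of 32 members, 27 had a promoter peak in both lists, DUSP2 and DUSP4 in the cisplatin list only, and DUSP5, KLF2 and KLF4 in neither. Of all tested genes 75.5% had one in both lists, and of those with a mean of at least 50 counts 9613 of 10898. Of the 30 tested, 18 rose by the 2 thresholds and none fell, and 27 rose by adjusted p alone, with DUSP6 lower. Of all tested genes 4.14% and 1.48% were higher and lower by the 2 thresholds, and 21.2% and 28.2% by adjusted p alone. The median ratio of their promoter peaks was 0.813, with a range of 0.363 to 1.17, beside 0.837 over all genes with a peak in both lists. FOS (ENSG00000170345), a subunit of AP-1, had 74.6, 75 and 71.5 normalized counts in control libraries and 828, 822 and 834 after cisplatin, a log2 fold change of 3.49 (SE 0.06, adjusted p = 1.6e-24 from edgeR). Its groups were far apart, while its promoter peak had a fold enrichment of 7.60 and 8.85. JUN, the partner of FOS, had 8.40, 10.6 and 12.8 counts in control and 156, 121 and 141 in cisplatin libraries (log2 fold change 3.72, SE 0.18), with peaks of 17.7 and 20.2. DUSP1, a phosphatase that switches off MAP kinases, had a log2 fold change of 2.67 and peaks of 12.3 and 13.4, and EGR1, a zinc-finger factor, 1.84 with 7.17 and 8.04. These 4 promoter peaks had a higher value after cisplatin, as had those of ZFP36, MYC and JUND, a difference that could not be tested. The other peaks had a lower one. Among them, ATF3, a stress-induced factor, had a log2 fold change of 2.21 (121 to 133 counts in control, 558 to 601 in cisplatin libraries) with peaks of 18.5 and 12.6, FOSB 2.14 with 8.71 and 6.14, and ARC, a synaptic gene, 2.09 with 6.49 and 3.49. For EGR4 (2.80), the strongest promoter peaks of the lists, 13.2 and 4.78, did not overlap.

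**Figure D4:**
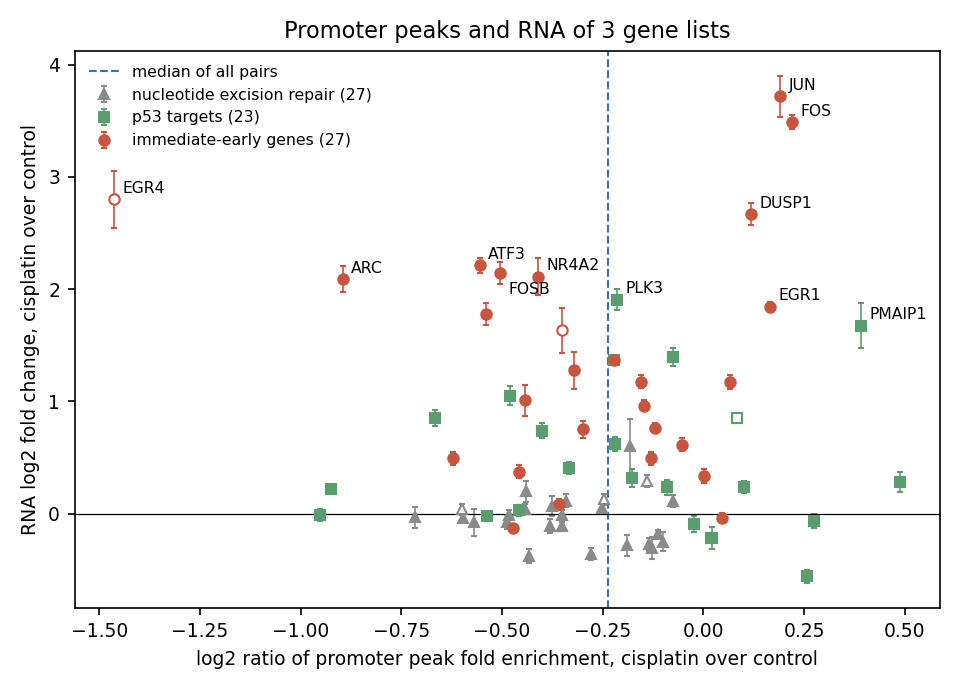
RNA log2 fold change after cisplatin (y, edgeR estimate, bars are standard errors) against the log2 ratio of the strongest promoter peak's fold enrichment, cisplatin over control (x), for immediate-early genes (circles), p53 targets (squares) and nucleotide excision repair genes (triangles), with the number of genes in brackets. Open symbols mark genes whose strongest peaks in the 2 lists do not overlap, and the dashed line is the median of all pairs. FOS and JUN lie at the top with ratios of 1.17 and 1.14, and EGR4 and ARC lie far to the left with 0.363 and 0.538.

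Targets of p53, the transcription factor activated by DNA damage, had a promoter peak in both lists in 23 of 24 cases. So had 75.5% of all tested genes and 9613 of the 10898 with a mean of at least 50 counts. Of the 23 tested, 5 rose by the 2 thresholds (BBC3, PMAIP1, BTG2, PLK3 and GDF15) and none fell, and by adjusted p alone 15 rose and 2 fell, beside the same shares of all tested genes (4.14% and 1.48%, 21.2% and 28.2%). The median ratio of their promoter peaks was 0.885, from 0.517 to 1.40, against 0.837 over all genes with both peaks. PMAIP1, which codes for the pro-apoptotic protein NOXA, had 14.9, 11.5 and 23.5 counts in control and 53.5, 50.3 and 54.0 in cisplatin libraries, with peaks of 8.07 and 10.6. The lowest ratios belonged to PPM1D, a phosphatase that damps p53 signalling (14.8 and 7.67), and SESN2, a stress-induced sestrin (18.1 and 9.53). Their RNA had log2 fold changes of -0.01 and 0.22. GADD45A, a growth arrest gene, had peaks of 23 and 14.5 and a log2 fold change of 0.85.

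Nucleotide excision repair genes, whose products remove cisplatin adducts, nearly all had a promoter peak in both lists. All but POLE of the 29 did, beside 75.5% of all tested genes and 9613 of 10898 with a mean of at least 50 counts. Their median fold enrichment was 19.5 in the control list. The ratios ran from 0.608 (XPA, which binds damaged DNA) to 0.967 (GTF2H4, a TFIIH subunit), with a median of 0.786. For ERCC1, POLD1 and PCNA, as for CDKN1A, EGR2, OSGIN1 and GCLC in the other gene groups, the strongest peaks did not overlap, so that the ratio compares different peaks. None of 28 passed both thresholds for RNA, and by adjusted p alone 4 rose, among them DDB2 and ERCC5, and 8 fell, beside 21.2% and 28.2% of all tested genes. Transport and detoxification genes had 12 of 15 promoters open in both lists, beside 75.5% of all tested genes, with a median ratio of 0.758. None of the 12 tested passed both thresholds. By adjusted p alone GSTP1, a glutathione transferase, rose, and the copper transporters ATP7A, ATP7B and SLC31A1 fell together with the efflux pump ABCC1. In both gene groups the share that fell lay near the 28.2% of all tested genes.

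A further list held the genes of the real-time PCR, which were chosen on RNA of these samples, so their direction is no independent evidence. All 7 rose by both thresholds. SNAI1, a repressor of E-cadherin, had peaks of 5.59 and 6.11 and a log2 fold change of 3.13, and MYLIP, a ubiquitin ligase for the LDL receptor, had 16.5 and 10.3 and 2.75.

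Few well expressed genes combined a lost or gained promoter peak with a called RNA change. HBEGF (ENSG00000113070), a ligand of the EGF receptor, had a control peak at chr5:140345882-140346986 with a fold enrichment of 5.35 and none after cisplatin. Its RNA rose from 38.2, 31.7 and 38.4 counts to 141, 128 and 117, a log2 fold change of 1.83 (SE 0.12, adjusted p = 2.2e-12 from edgeR). The zinc-finger gene ZNF296 also rose (67.2, 72.1 and 68.3 to 173, 115 and 154 counts) with a lost peak of 6.56 (chr19:45075242-45075906), whose midpoint lay 904 bp from the nearest start. ENSG00000279133, with a lost peak of 4.47 at chr17:62007888-62008460, fell from 104, 99.0 and 98.2 to 44.1, 34.9 and 31.4 counts. With a gained peak, DUSP2 (chr2:96144083-96144772, 5.87) rose from 90.5, 79.8 and 91.8 to 196, 196 and 188 counts, and AOC2, an amine oxidase (chr17:42843296-42843610, 6.15), and GPR3, an orphan receptor (chr1:27392797-27393054, 4.27), rose with log2 fold changes of 1.72 and 1.09. PLCL2, a phospholipase C-like gene (chr3:16883852-16884263, 7.71), fell from 133, 138 and 137 to 63.8, 72.6 and 58.0 counts although its peak was gained. The integrin gene ITGA8 (chr10:15718677-15719399, 5.96) likewise fell, with a log2 fold change of -1.05. With a window of 500 bp, ZNF296, AOC2 and ITGA8 had a promoter peak in neither list, and the midpoint of the AOC2 peak lay 1127 bp from the nearest start. In all 8 genes the libraries of the 2 groups did not overlap, which the rule for naming them required.

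Away from promoters, peaks within 50 kb of a start were also counted by the RNA call of the gene. Of 11733 such control peaks near any tested gene, 37.9% were lost, against 32.8% near the 652 higher genes and 48.2% (151 of 313) near the 233 lower genes. The gained shares were 22.3%, 21.0% and 25.7%. Near immediate-early genes 23 of 74 were lost, near p53 targets 11 of 32, near nucleotide excision repair genes 4 of 43 and near transport genes 7 of 17. Genes with at least 1 lost intronic peak had a median log2 fold change of -0.26 (1606 genes), those whose intronic peaks were all kept -0.13 (1576), and those without an intronic control peak 0.03 (12578). These groups differ in gene length, with medians of 103537, 67096 and 16489 bp. Among genes of 100 to 300 kb the medians were -0.38, -0.34 and -0.41.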

How the data were processed

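ATAC-seq peak lists of A2780 and Acis cells and RNA-seq counts of the same 4 conditions were used. Per the authors' methods, ATAC reads were trimmed with cutadapt 1.15, aligned to hg38 with Bowtie2 2.4.1 allowing up to 10 alignments per read, and cleared of duplicates and of chromosome Y and mitochondrial reads. Peaks were called with MACS2 on pooled replicates and kept where they overlapped by over 50% between all replicates. The authors deposited, for each peak, the fold enrichment over local background as a linear ratio. The -log10 p and -log10 q values are also given as deposited by the authors. The peak score column, as deposited by the authors, was not used. RNA counts were deposited by the authors raw, after STAR 2.7.3, duplicate removal with Picard and HTSeq 0.11.1 with strand.

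Overlaps were computed in Python 3.11.15 and checked against bedtools 2.31.1. GENCODE 44 gave transcript starts, exons and genes, and hg38 the sequence. Counts were fitted with edgeR 4.0.16 in R 4.3.3 (TMM, default filter on low counts, 12 libraries in 4 groups, 8 residual degrees of freedom), tested by quasi-likelihood with Benjamini-Hochberg adjustment, and DESeq2 1.42.0 was an alternative. Normalized counts are TMM-scaled to the mean library. The overlap code and the RNA fit were tested on simulated data. The peak files give no reads and the methods state only a minimum of aligned reads per sample, so the depth of each list is not known. RNA totals were 4130644 to 5072216 counts per library.

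Named peaks are the 10 lost and 10 gained of highest fold enrichment and the 5 kept pairs in each direction with the largest ratio, with at least 10 in the higher list. Named genes have a promoter peak in 1 list only, pass both RNA thresholds without overlap between groups, and reach 100 normalized counts in the higher one, up to 5 per direction, besides the members of the gene lists. The comparison, lists and rules were chosen with earlier results of these data known. Some items are not reported here.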

Additional observations from a re-analysis of the deposited data

Results flagged for a closer look

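After cisplatin the number of listed peaks differed by -2820 in A2780 cells (34979 control peaks) and by 2836 in Acis cells (24485 control peaks), in opposite directions under the same treatment. Both changes compare a list from 3 pooled replicates with a list from 2. The difference between the lines was not tested, since each condition has 1 list.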

How the results depend on the processing

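Counts of lost and gained peaks depended on strength. With both lists cut to their 20000 peaks of highest -log10 q before the overlap, 3405 control and 3305 cisplatin peaks had no partner in the other cut list. Peaks with a -log10 q of at least 20, set against the whole other list, gave 6094 lost and 1477 gained. This cutoff was stricter for the cisplatin list, as it left 30567 control and 22322 cisplatin peaks. Under the other overlap rules there were 9329 to 10836 lost and 6152 to 8016 gained peaks, and joining peaks within 150 bp altered nothing, as no gap is that small. The lost shares of promoter and other peaks were 13.3% and 42.6% when 50% of the peak had to overlap, and 14.7% and 43.1% with reciprocal overlap. They were 6.50% and 30.2% with both lists cut to the strongest 20000, and 6.31% and 31.4% with a -log10 q of at least 20. With a promoter window of 500 bp they were 7.07% and 38.2%, with 2500 bp 12.6% and 41.1%, and with protein-coding starts only 4.67% and 34.6%. Promoters kept the lower share under each of these. Called RNA genes (652 higher and 233 lower) numbered 1199 and 500 with no filter on low counts, 97 and 36 in a fit to genes with a mean of at least 50 counts, 3347 and 4451 by adjusted p alone and 804 and 153 with total counts. DESeq2 gave 646 and 246, and the A2780 libraries alone 606 and 163. Leaving out 1 library gave 654 to 751 and 239 to 274. Chosen after seeing the data, averaging the closest pair of libraries in each A2780 group gave 678 and 225, and averaging all 3 A2780 control libraries 514 and 192. The medians of RNA by promoter state (both, control only, cisplatin only, neither) were 0.0933, 0.0846, 0.0843 and 0.151 with total counts. In the fit to genes with at least 50 counts they were -0.0163 for both, 0.0118 for control only and 0.0516 for neither, and the same genes in the fit to all genes gave -0.0585, -0.0269 and 0.00954, so the sign for control only turned with the refit. Leaving out 1 library gave -0.0443 to 0.000667 for control only. Replicate numbers do not pair the libraries (correlations of 0.083, 0.035 and 0.036), and a replicate block gave 654 and 235 calls, with medians of -0.0227, -0.0306, -0.0231 and 0.0353. The causes of these differences were not tested.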
